A study of Mus musculus with 12 samples.

Results

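The genes of the mouse major histocompatibility complex (MHC, called H2 in the mouse) and of antigen processing were followed in livers of mice given lipopolysaccharide (LPS). The group was chosen by name: every gene whose symbol starts with H2-, which gave 29 genes, and 13 listed genes (Psmb8, Psmb9, Psmb10, Tap1, Tap2, Tapbp, B2m, Ciita, Nlrc5, Cd74, Erap1, Psme1 and Psme2). These 42 genes stand among 19938 genes measured by a probe set with 1 gene symbol. The rule uses symbols and no measured values, though it was drawn up with earlier results of these data known.

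Each of 12 livers was measured on 1 whole-transcript array, in 3 groups of 4. S534A LPS mice carry a knock-in in which a serine of p65, the transactivating subunit of NF-kB, is replaced by alanine, and received LPS at 1 µg/kg. WT LPS mice are wild type and received the same dose, and WT untreated mice are wild type and received none. All 12 are male livers, and the labels give C57Bl6/J as the strain of the WT mice and as the background of the S534A mice. PTL1 embryonic stem cells were the source of the knock-in, which was bred to homozygosity after 5 backcrosses to C57Bl6/J. The labels do not say whether the WT mice are littermates, and the substitution cannot be told apart from other differences in background that remained after these backcrosses. How long after LPS the livers were taken is not stated in the labels. No S534A liver without LPS was analysed, and the S534A comparison describes LPS-treated livers only. The untreated arrays carry titles of another scheme than the LPS arrays, and any batch that this marks cannot be told apart from LPS. Nothing in the labels says that the 4 livers of a group came from separate animals, and p-values measure the spread between these arrays.

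MHC class I molecules sit on nearly all nucleated cells and show peptides from the cell's own proteins to CD8 T cells and NK cells. The immunoproteasome cuts those proteins, the TAP pump carries the peptides into the endoplasmic reticulum, and tapasin helps load them onto a heavy chain paired with beta-2-microglobulin. Class II molecules are made mainly by macrophages, dendritic cells and B cells and show peptides from ingested material to CD4 T cells. Nlrc5 is the transactivator of class I genes and Ciita that of class II genes, and both pathways are known to respond to interferon-gamma.

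The livers carried hepatocyte RNA throughout: the mean of 8 hepatocyte markers lay between 13.45 and 13.53 log2 signal in S534A LPS livers, 13.53 and 13.58 in WT LPS livers and 13.50 and 13.57 in untreated WT livers. Some markers of other cells moved with LPS. In WT LPS against untreated WT livers, 6 of 8 neutrophil markers and 3 of 4 monocyte markers were higher, 2 of 5 NK cell markers were higher, 4 of 6 Kupffer cell markers were lower, and of 5 markers of sinusoidal endothelium 3 were lower and 1 higher. For B cells and dendritic cells, 1 of 6 and 1 of 8 markers were lower, and no T cell marker of 6 passed. By the test used below, 9.34% of all genes were called higher and 15.6% lower in this comparison. The counts for B cells and dendritic cells are close to that share of lower genes. Neutrophil markers averaged 6.82 to 7.19 in S534A LPS livers, 6.47 to 6.71 in WT LPS livers and 5.28 to 5.54 in untreated WT livers. Of the 8, 2 were higher in S534A LPS than in WT LPS livers, as were 0.166% of all genes. Kupffer cell markers averaged 8.95 to 9.13 in S534A LPS livers, 8.60 to 9.33 in WT LPS livers and 9.40 to 9.83 in untreated WT livers. The part of these cells in the differences below was not tested, and in whole liver a change in the number of cells of a type and a change in RNA per cell cannot be told apart. Exocrine pancreas markers averaged 9.35 on S534A LPS replicate 3 and 8.32 on WT LPS replicate 2, against 5.85 to 6.76 on the other 10 arrays, of which WT LPS replicate 3 was the highest. Where arrays with pancreas transcripts are left out below, these are S534A LPS replicate 3 and WT LPS replicates 2 and 3, which leaves 3 S534A LPS and 2 WT LPS arrays. A mean of 11 clock genes was 9.40 and 9.46 on untreated WT replicates 2 and 4, against 8.30 and 7.96 on replicates 1 and 3 and 8.39 to 8.75 on the LPS arrays.

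The stretches below lie before the gene starts of members that the results turn on, and are shown because none of the short motifs searched there was found only in members that rose. They are RefSeq sequence of build GRCm38.p6, 5′ to 3′ on the gene's strand, and capitals mark matches on either strand to AANNGAAA (the core of interferon regulatory factor sites), GGNNNTTCC (like a kB site of NF-kB) and CCAAT (the Y box of MHC promoters). The Tap1 entry is the whole stretch of 225 bases between the gene starts of Psmb9 and Tap1, which point away from each other.
Tap1 (chr17:34187331-34187555, plus strand): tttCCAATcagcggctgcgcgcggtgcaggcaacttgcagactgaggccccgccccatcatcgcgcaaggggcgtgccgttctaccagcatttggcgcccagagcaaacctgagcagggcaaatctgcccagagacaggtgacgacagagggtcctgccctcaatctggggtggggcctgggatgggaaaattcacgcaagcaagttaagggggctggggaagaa
H2-Q4 (chr17:35379429-35379581, plus strand): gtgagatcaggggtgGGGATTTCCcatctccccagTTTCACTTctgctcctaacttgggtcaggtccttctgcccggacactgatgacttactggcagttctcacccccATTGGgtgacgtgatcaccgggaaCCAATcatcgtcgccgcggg
H2-M3 (chr17:37270090-37270232, plus strand): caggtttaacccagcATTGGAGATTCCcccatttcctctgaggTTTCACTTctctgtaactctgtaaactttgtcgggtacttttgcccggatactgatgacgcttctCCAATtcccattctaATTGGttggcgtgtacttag
H2-Q10 (chr17:35469901-35470053, plus strand): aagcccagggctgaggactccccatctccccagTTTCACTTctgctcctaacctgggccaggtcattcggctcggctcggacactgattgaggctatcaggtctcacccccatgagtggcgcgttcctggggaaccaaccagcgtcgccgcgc
B2m (chr2:122147535-122147653, plus strand): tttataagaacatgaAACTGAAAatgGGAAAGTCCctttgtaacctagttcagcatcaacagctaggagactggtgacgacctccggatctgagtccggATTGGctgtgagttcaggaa
H2-Aa (chr17:34287852-34288051, minus strand): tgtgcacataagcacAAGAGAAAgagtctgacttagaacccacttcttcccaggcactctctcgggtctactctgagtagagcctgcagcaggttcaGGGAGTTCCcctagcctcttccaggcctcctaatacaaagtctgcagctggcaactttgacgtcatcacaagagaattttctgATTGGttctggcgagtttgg
H2-Eb1 (chr17:34305793-34305851, plus strand): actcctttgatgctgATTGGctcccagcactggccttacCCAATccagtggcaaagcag

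RefSeq held a window from 250 bases before to 50 bases after the gene start for 31 of the 42 members. AANNGAAA occurred in the windows of 15 of these 31 genes (48.4%), against 26.7% of all 27025 genes with a window, and its stricter form AAANNGAAA, every match of which is also a match to AANNGAAA, in 6 (19.4%) against 12.1%. CCAAT occurred in 24 (77.4%) against 41.1%. GGNNNTTCC was found in 7 (22.6%) against 20.7%. Matches stood in members that rose and in others: AANNGAAA was present in 4 of the 10 members with a window that rose after LPS and in 11 of the other 21, and CCAAT in 5 of 10 and 19 of 21. The windows of Psmb9 and Tap1 share 275 bases, and their CCAAT match is the same site, counted here for both genes. Psmb8 and Tap1, which rose, held no AANNGAAA or GGNNNTTCC in their windows, and B2m, which did not pass, held both. H2-Q4, which rose, and H2-Q10, which fell, both carried an AANNGAAA match within the span shown, with a GGNNNTTCC match in H2-Q4 only. In H2-M3 a CCAAT match and a GGNNNTTCC match overlap. These are matches of letters, many of the genes are related copies, and no test was made on the shares.

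The first question was what LPS does to these genes in wild-type livers. Class I processing genes were higher in WT LPS than in untreated WT livers, led by the peptide pump subunit Tap1 at 6.97-fold, while of the 9 class II members none passed as higher and 1, H2-DMa, was lower. By limma, with Benjamini-Hochberg adjustment over all 19938 genes and a threshold of 0.05, 15 of the 42 members were higher, 2 were lower and 25 did not pass. Over all genes, 9.34% were called higher and 15.6% lower. The difference between class I and class II genes was not tested. The median log2 difference was 0.12 over the 42 members and 0.02 over all genes, and 10 members were at least 2-fold higher. Of the 15 higher calls, 13 held under all 23 alternative settings, and Erap1 and H2-K2 did not. Without the 3 arrays that carried pancreas transcripts, 14 members were higher and 0 lower, where 1482 of all 19938 genes were called higher and 1745 lower.

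**Figure D1:**
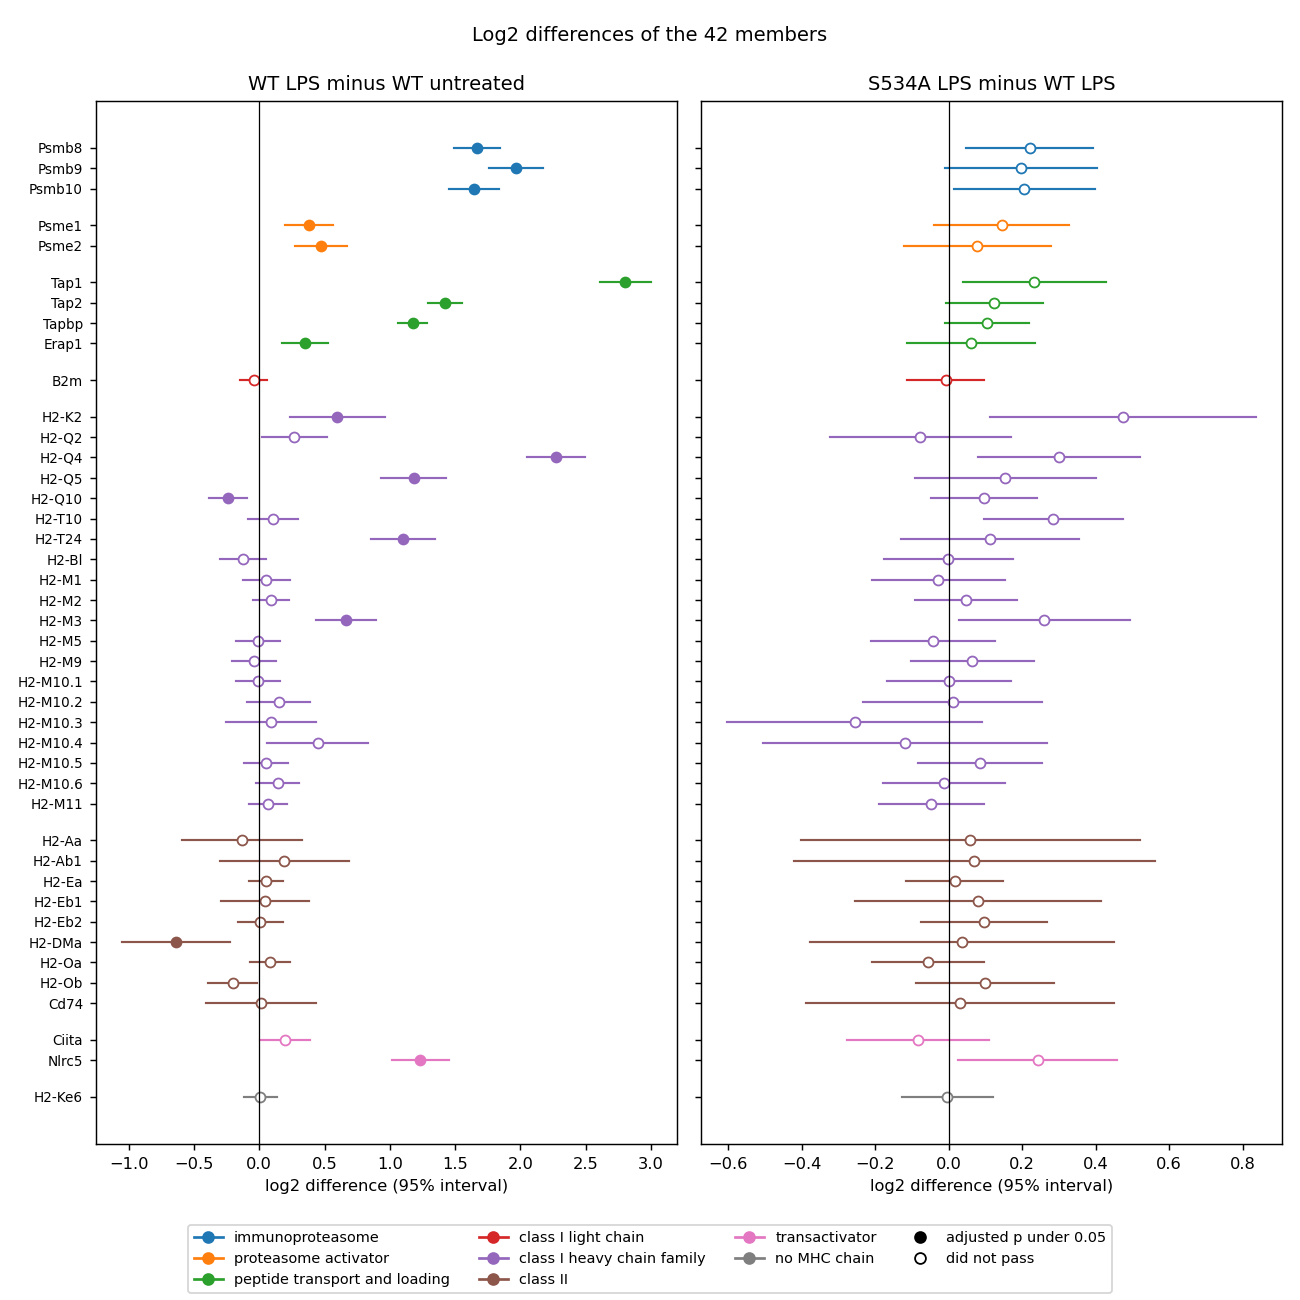
Log2 differences of the 42 members by role, WT LPS minus WT untreated on the left and S534A LPS minus WT LPS on the right, with 95% confidence intervals from limma; the 2 panels have different horizontal scales. Filled points passed an adjusted p of 0.05: 17 members on the left, with Tap1 farthest from 0 at 2.80, and none on the right.

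The 3 immunoproteasome subunits, which replace the constitutive catalytic subunits of the proteasome, all rose after LPS. Psmb8 (LMP7) read 10.17, 10.31, 10.23 and 10.27 in S534A LPS livers, 10.17, 9.91, 9.88 and 10.14 in WT LPS livers, and 8.40, 8.47, 8.23 and 8.33 in untreated WT livers. All 4 WT LPS arrays lay above all 4 untreated arrays, while the S534A LPS and WT LPS arrays overlapped. WT LPS livers averaged 10.02 ± 0.15 and untreated WT livers 8.36 ± 0.10 (SD, n = 4 each), a log2 difference of 1.67 ± 0.08 (SE), or 3.17-fold (limma adjusted p = 8.27e-09). Psmb9 (LMP2) read 10.63, 10.78, 10.72 and 10.79 in S534A LPS livers, 10.66, 10.56, 10.37 and 10.54 in WT LPS livers, and 8.73, 8.55, 8.70 and 8.29 in untreated WT livers. WT LPS and untreated arrays were again apart, by 1.97 ± 0.10 (3.91-fold, limma adjusted p = 9.64e-09). Psmb10 (MECL-1) rose by 1.64 ± 0.09 (limma adjusted p = 2.65e-08).

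Of the 3 constitutive counterparts of these subunits, 1 rose. Psmb5, replaced by Psmb8, rose by 0.33 ± 0.07 (limma adjusted p = 0.00416), while Psmb6, replaced by Psmb9, differed by -0.15 ± 0.06 (adjusted p = 0.0712) and Psmb7, replaced by Psmb10, by 0.02 ± 0.06 (adjusted p = 0.848), neither of which passed in limma.

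The subunits of the PA28 proteasome activator, which opens the proteasome for peptide release, rose by less. Psme1 (PA28 alpha) read 11.19, 11.22, 11.16 and 11.23 in S534A LPS livers, 11.26, 11.12, 10.88 and 10.94 in WT LPS livers, and 10.82, 10.68, 10.55 and 10.63 in untreated WT livers. Its WT LPS arrays all lay above the untreated arrays, the closest pair being 10.88 and 10.82, and the difference was 0.38 ± 0.08 (1.30-fold, limma adjusted p = 0.00499). Psme2 (PA28 beta) read 11.96, 12.05, 11.96 and 11.85 in S534A LPS livers, 11.99, 11.91, 11.80 and 11.82 in WT LPS livers, and 11.44, 11.34, 11.19 and 11.66 in untreated WT livers. It differed by 0.47 ± 0.09 (1.39-fold, limma adjusted p = 0.00212), again without overlap of WT LPS and untreated arrays. A further probe set that carries the symbols of both Psme2 and Psme2b differed by 0.48 and was not tested.

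Peptide transport and loading genes rose as a group, 4 of 4. Tap1, a subunit of the TAP pump, read 11.54, 11.54, 11.47 and 11.57 in S534A LPS livers, 11.40, 11.37, 11.22 and 11.19 in WT LPS livers, and 8.51, 8.42, 8.75 and 8.29 in untreated WT livers. The gap between WT LPS and untreated arrays was wide, from 11.19 to 8.75 at the closest. WT LPS livers averaged 11.30 ± 0.10 and untreated WT livers 8.49 ± 0.20 (SD, n = 4 each), which gave 2.80 ± 0.09 (limma adjusted p = 1.50e-10), the 40th smallest p of all genes. Tap2, its partner subunit, read 9.89, 9.87, 9.75 and 9.88 in S534A LPS livers, 9.70, 9.82, 9.73 and 9.64 in WT LPS livers, and 8.34, 8.30, 8.35 and 8.21 in untreated WT livers. WT LPS and untreated arrays did not overlap, and the difference was 1.42 ± 0.06 (2.68-fold, limma adjusted p = 2.47e-09). Tapbp (tapasin) rose by 1.17 ± 0.05 (2.26-fold, limma adjusted p = 3.93e-09). A pair of probe sets that carry the symbols of both Tapbp and the ribosomal protein gene Rps3a1 differed by -0.13 and -0.18 and were not tested. Erap1, which trims peptides in the endoplasmic reticulum, rose by 0.35 ± 0.08 (limma adjusted p = 0.00625), a call that was lost without untreated WT replicates 1 and 3 (0.21, adjusted p = 0.0663).

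**Figure D2:**
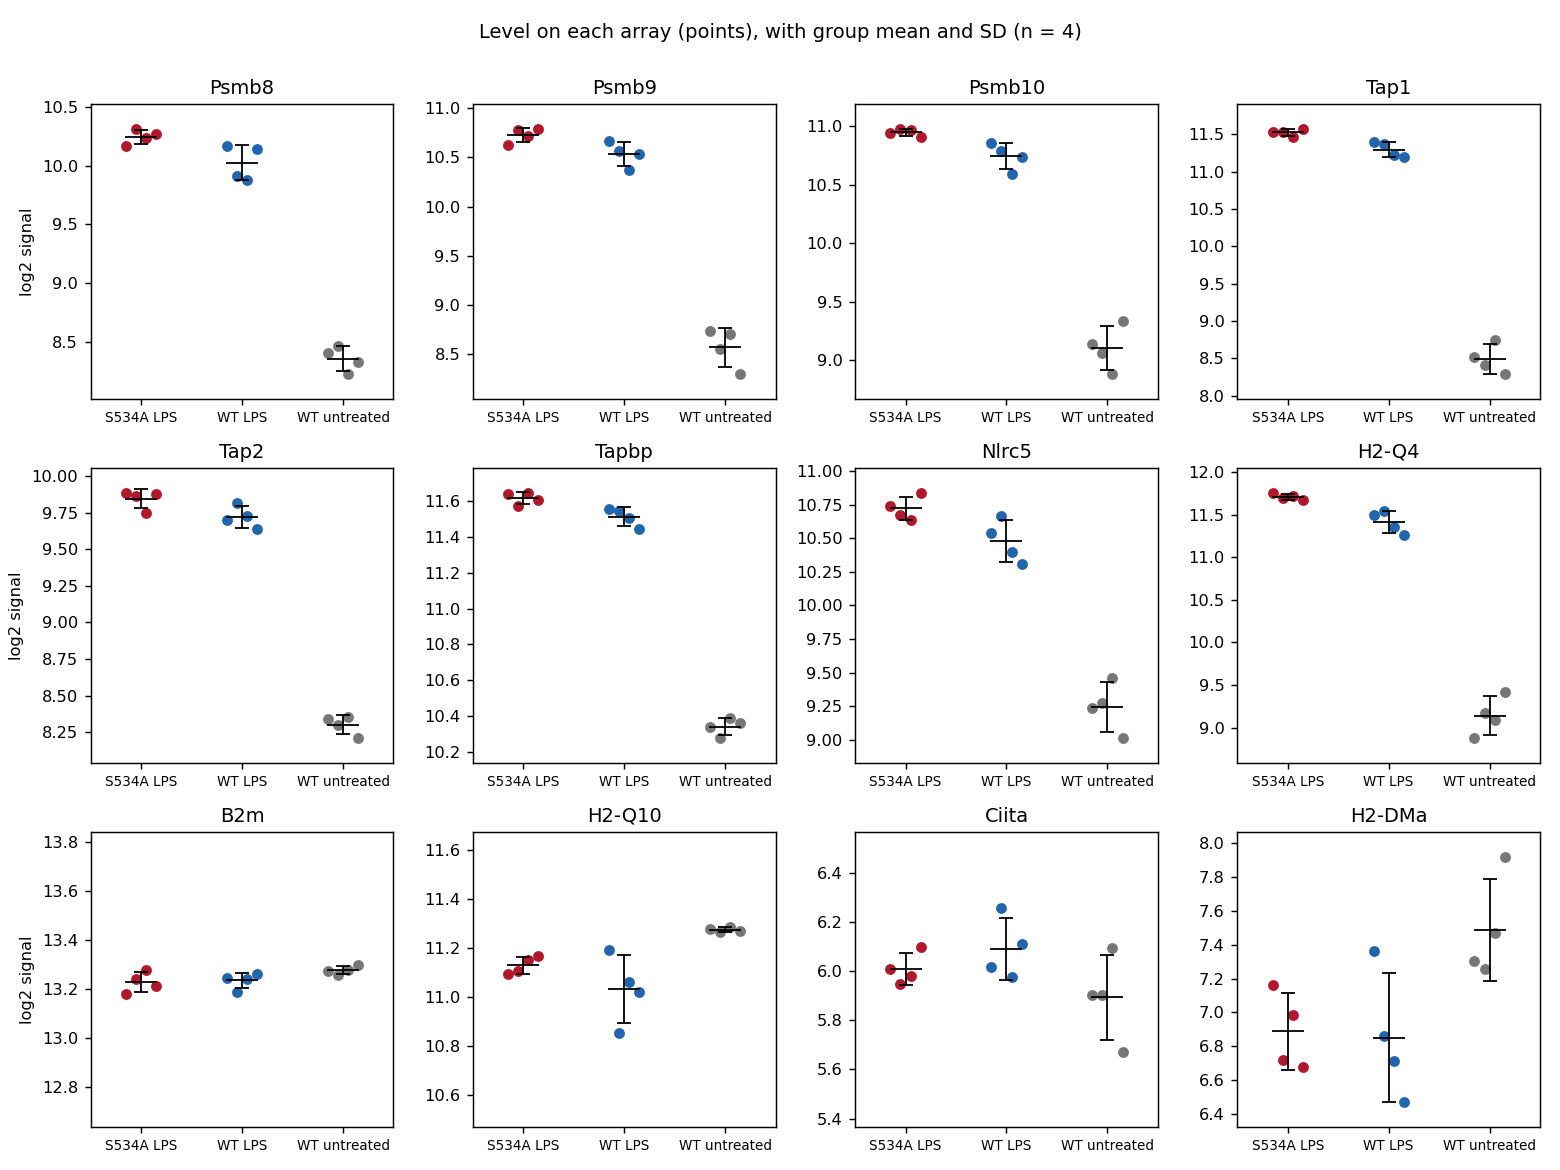
Log2 signal of 12 members on each array (points) with the group mean and SD (bars, n = 4), in S534A LPS, WT LPS and WT untreated livers from left to right; each panel has its own vertical scale. For Psmb8, Psmb9, Psmb10, Tap1, Tap2, Tapbp, Nlrc5 and H2-Q4 all LPS arrays lie above all untreated arrays, whereas B2m and Ciita overlap.

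The light chain that every class I molecule needs did not follow. B2m (beta-2-microglobulin) read 13.18, 13.24, 13.28 and 13.21 in S534A LPS livers, 13.25, 13.19, 13.24 and 13.26 in WT LPS livers, and 13.27, 13.26, 13.28 and 13.30 in untreated WT livers. The groups overlapped and the arrays of each group lay close together, so that the difference of -0.04 ± 0.05 had a narrow 95% interval, -0.15 to 0.06 (limma adjusted p = 0.567). B2m lay near the upper end of the measured values, which ran from 3.43 to 14.48. Whether its probe set could show a rise at that level was not tested.

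Of the 20 members of the class I heavy chain family, 5 rose, 1 fell and 14 did not pass. H2-Q4, a non-classical class I gene of the Q region, read 11.75, 11.70, 11.72 and 11.67 in S534A LPS livers, 11.49, 11.54, 11.35 and 11.26 in WT LPS livers, and 8.87, 9.18, 9.09 and 9.42 in untreated WT livers. The S534A LPS arrays lay above the WT LPS arrays and both lay far above the untreated arrays. WT LPS livers averaged 11.41 ± 0.13 and untreated WT livers 9.14 ± 0.23 (SD, n = 4 each), a difference of 2.27 ± 0.10, or 4.83-fold (limma adjusted p = 4.11e-09). H2-Q5, of the same region, read 10.52, 10.46, 10.63 and 10.43 in S534A LPS livers, 10.38, 10.33, 10.36 and 10.35 in WT LPS livers, and 9.19, 9.24, 8.78 and 9.48 in untreated WT livers. The 4 WT LPS arrays lay within 10.33 and 10.38, and the difference from untreated arrays was 1.18 ± 0.11 (2.27-fold, limma adjusted p = 7.78e-06). H2-T24 rose by 1.10 ± 0.11 (limma adjusted p = 1.31e-05) and H2-M3, which presents formylated bacterial peptides, by 0.66 ± 0.11 (adjusted p = 0.000564). H2-K2 rose by 0.60 ± 0.17 (limma adjusted p = 0.0191) and no longer passed without WT LPS replicate 1 (0.47, adjusted p = 0.0512), without the arrays with pancreas transcripts (0.68, adjusted p = 0.0653) or without untreated WT replicates 2 and 4 (0.66, adjusted p = 0.0514).

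H2-Q10, which encodes a class I molecule that the liver secretes, was the member of the family that fell. It was lower by a log2 difference of -0.24 ± 0.07 (limma adjusted p = 0.0182), with values of 11.03 ± 0.14 in WT LPS livers and 11.28 ± 0.01 in untreated WT livers (SD, n = 4 each). All 4 WT LPS arrays lay below all 4 untreated arrays, which held for 14.9% of all genes. The call was lost without the arrays with pancreas transcripts (-0.17, adjusted p = 0.152), with the fit limited to WT LPS and untreated WT livers (adjusted p = 0.0612) and without untreated WT replicates 2 and 4 (adjusted p = 0.0678) or 1 and 3 (adjusted p = 0.0744).

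The 14 members of the family that did not pass were H2-Q2, H2-T10, H2-Bl, H2-M1, H2-M2, H2-M5, H2-M9, H2-M11 and the 6 H2-M10 genes, which in the mouse are known from vomeronasal neurons. Their differences ran from -0.12 for H2-Bl to 0.45 for H2-M10.4 (limma adjusted p = 0.0879). Except for H2-Q2, H2-T10 and H2-M10.2, these genes averaged 4.63 (H2-M10.1) to 6.10 (H2-M5) over the 12 arrays, below the array medians of 6.15 to 6.32. A filter on dim genes left out those low genes. At such levels a missing call does not show that a gene was unchanged. WT LPS replicate 2, which carried pancreas transcripts, was the highest of its group for 11 of the 20 family members, such as H2-M10.4 at 6.61 against 5.64 to 6.03 on the other WT LPS arrays. WT LPS replicate 1 was the highest for the other 9 and WT LPS replicate 3 for 0. S534A LPS replicate 3, the array with the highest mean of pancreas markers, was the highest of its group for 5 of the 20. The part of pancreas RNA in these values was not tested. The classical genes H2-K1 and H2-D1 had no probe set of their own. A probe set naming both averaged 12.76 in S534A LPS, 12.74 in WT LPS and 12.35 in untreated WT livers, and another 12.51 in S534A LPS, 12.52 in WT LPS and 12.32 in untreated WT livers. One naming H2-Q6 and H2-Q8 averaged 12.12 in S534A LPS, 11.96 in WT LPS and 9.81 in untreated WT livers, and one naming H2-T9, H2-T22 and H2-T10 averaged 11.19, 10.99 and 10.13 in those groups. In the same order, one naming H2-T-ps and H2-T23 averaged 11.02, 10.94 and 10.54, and one naming H2-Q1 and H2-Bl 7.24, 7.16 and 6.93. One naming H2-T3 and H2-T18 hardly differed, at 5.31, 5.28 and 5.29. These probe sets were not tested, and since class I genes are near-identical in long stretches, a probe set of 1 symbol can also read related genes.

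Of the 9 class II members, 0 rose by limma, 1 fell and 8 did not pass, numbers close to what the shares over all genes would give for 9 genes. At an unadjusted p under 0.05, 0 were higher and 2, H2-DMa and H2-Ob, were lower. H2-DMa, a chain of the DM exchanger that loads peptides onto class II molecules, read 7.16, 6.72, 6.99 and 6.68 in S534A LPS livers, 7.37, 6.86, 6.71 and 6.47 in WT LPS livers, and 7.30, 7.26, 7.47 and 7.92 in untreated WT livers. WT LPS replicate 1 lay among the untreated arrays. WT LPS livers averaged 6.85 ± 0.38 and untreated WT livers 7.49 ± 0.30 (SD, n = 4 each), a difference of -0.64 ± 0.19 (limma adjusted p = 0.0266). This call did not pass without untreated WT replicate 4 (adjusted p = 0.0753), WT LPS replicate 3 (adjusted p = 0.0690) or WT LPS replicate 4 (adjusted p = 0.0834), nor without the arrays with pancreas transcripts (adjusted p = 0.189). H2-Ob, a chain of the DO inhibitor of DM, read 6.40, 6.12, 6.12 and 6.28 in S534A LPS livers, 6.26, 6.01, 6.18 and 6.07 in WT LPS livers, and 6.22, 6.27, 6.36 and 6.49 in untreated WT livers. WT LPS and untreated arrays overlapped, and the difference of -0.20 ± 0.09 did not pass (limma adjusted p = 0.111). A probe set shared by H2-DMb1 and H2-DMb2, the partner chains of H2-DMa, averaged 6.78, 6.88 and 7.15 in S534A LPS, WT LPS and untreated WT livers and was not tested.

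The peptide-binding chains and the invariant chain varied more between livers of a group than between groups. H2-Aa differed by -0.13 ± 0.21, H2-Ab1 by 0.19 ± 0.23, H2-Eb1 by 0.05 ± 0.15 and Cd74, the invariant chain that escorts class II molecules, by 0.01 ± 0.19, with limma adjusted p from 0.580 to 0.967. The 95% intervals were wide, -0.59 to 0.33 for H2-Aa and -0.30 to 0.68 for H2-Ab1. H2-Ea, whose promoter is deleted in the b haplotype of C57BL mice, stayed between 4.97 and 5.18 on all 12 arrays. Untreated WT replicate 4 was the highest of its group for 7 of the 9 class II members, an observation made after seeing the values. It read 9.99 for H2-Aa, 9.80 for H2-Ab1, 9.57 for H2-Eb1 and 10.30 for Cd74, against highest values of 9.49, 9.23, 9.07 and 9.60 on the other untreated arrays. The same array had the highest mean of the Kupffer cell markers (9.83, against 9.40 to 9.60 on the other untreated arrays). Its mean of the B cell markers was also the highest of the group (6.12, against 6.02 to 6.10). Of these markers, however, only Ms4a1 was highest on that array, while Cd79a, Cd22 and Pax5 were lowest. Dendritic cell markers averaged 6.04 on it, against 6.04 to 6.13 on the other untreated arrays, with Clec9a alone highest there. The part of these cells in the class II values was not tested.

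**Figure D3:**
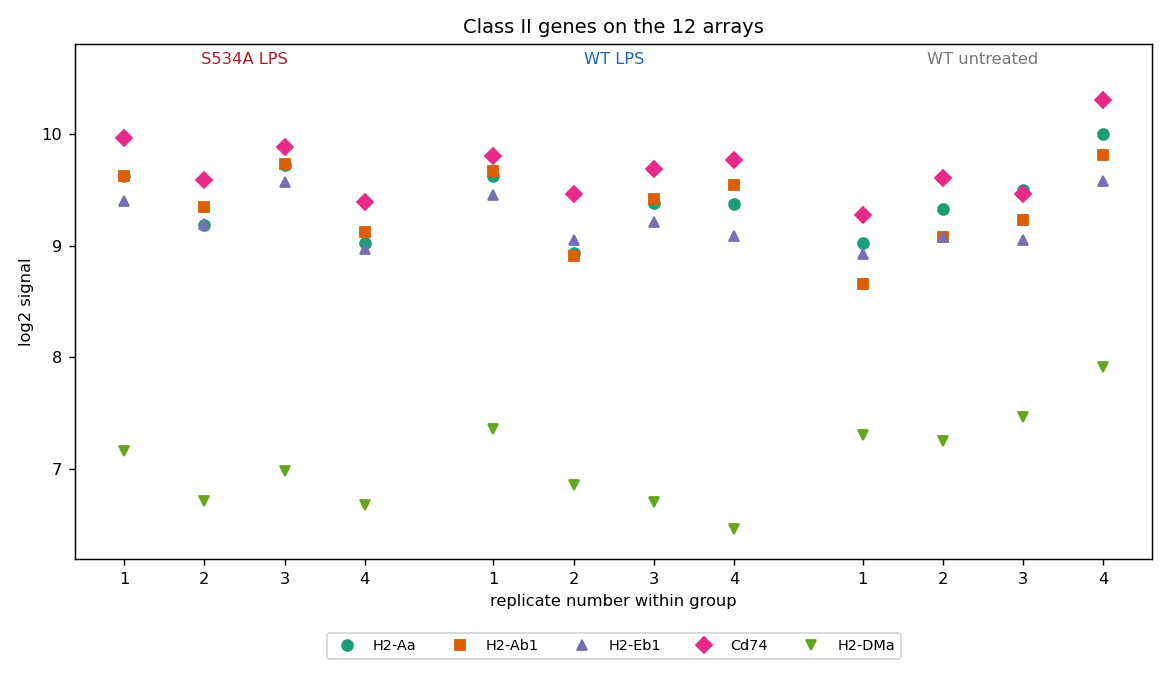
Log2 signal of 5 class II genes on the 12 arrays, by replicate number within S534A LPS, WT LPS and WT untreated livers. Untreated WT replicate 4 is the highest array for all 5 genes, and for H2-Aa, H2-Ab1, H2-Eb1 and Cd74 the groups overlap.

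Of the 2 transactivators, 1 rose and 1 did not pass. Nlrc5, the class I transactivator, read 10.74, 10.67, 10.64 and 10.84 in S534A LPS livers, 10.54, 10.67, 10.40 and 10.31 in WT LPS livers, and 9.23, 9.27, 9.46 and 9.01 in untreated WT livers. All WT LPS arrays lay above all untreated arrays, with 10.48 ± 0.16 in WT LPS livers and 9.24 ± 0.18 in untreated WT livers (SD, n = 4 each), a difference of 1.23 ± 0.10, or 2.35-fold (limma adjusted p = 1.50e-06). Ciita, the class II transactivator, read 6.01, 5.95, 5.98 and 6.10 in S534A LPS livers, 6.02, 6.26, 5.98 and 6.11 in WT LPS livers, and 5.90, 5.90, 6.10 and 5.67 in untreated WT livers. These values lay near or below the array medians of 6.15 to 6.32, and a filter on dim genes left Ciita out. At such a level a missing call does not show that the gene was unchanged. The 3 groups overlapped, and the difference of 0.20 ± 0.09 did not pass (limma adjusted p = 0.131). It passed without untreated WT replicate 3 (0.26, adjusted p = 0.0437) and without untreated WT replicates 1 and 3 (0.30, adjusted p = 0.0409). The difference between the responses of Nlrc5 and Ciita was itself not tested.

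Nlrc5 was read by 19 probe sets, of which the one with the highest mean was used above. WT LPS minus untreated WT differences were positive for 19 of 19, from 0.82 to 2.43 with a median of 1.84, and in each the 4 WT LPS arrays lay above the 4 untreated arrays. The value of 1.23 therefore stood at the low end of what the probe sets of this gene gave. With the mean of its probe sets, Nlrc5 rose by 1.78 in WT LPS livers. Probe sets of 1 gene share the RNA of the same 12 livers and are not replicates.

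**Figure D4:**
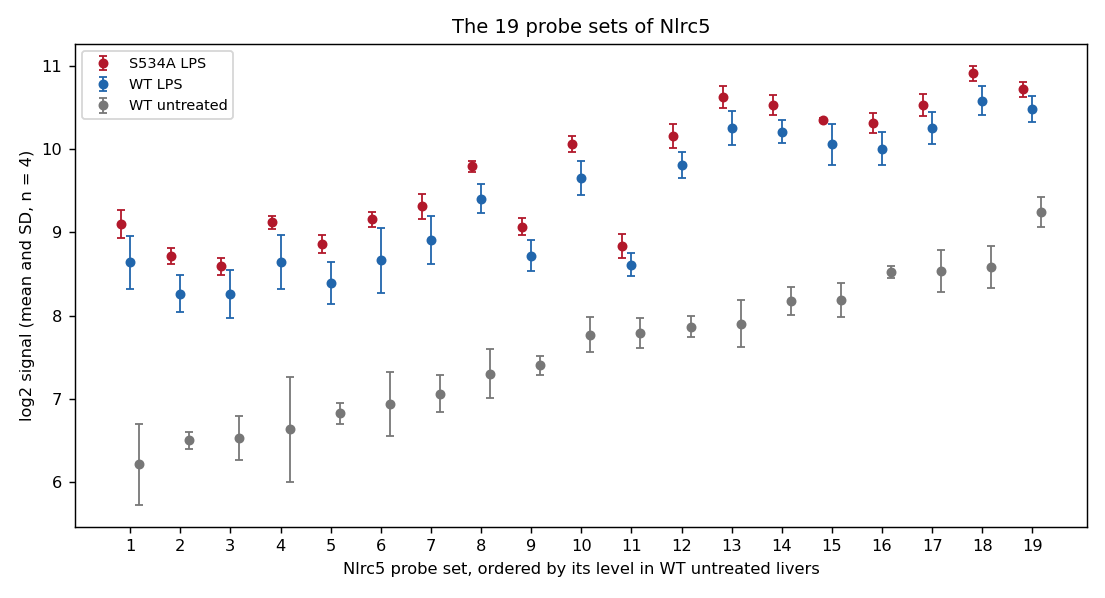
Mean log2 signal and SD (n = 4) of the 19 probe sets of Nlrc5 in S534A LPS, WT LPS and WT untreated livers, ordered by the level in untreated WT livers. The S534A LPS mean lies above the WT LPS mean, and both above the untreated mean, for 19 of 19 probe sets.

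One member carries an H2- symbol but encodes no MHC chain. H2-Ke6, a hydroxysteroid dehydrogenase gene within the complex, read 10.42, 10.50, 10.50 and 10.37 in S534A LPS livers, 10.44, 10.48, 10.50 and 10.38 in WT LPS livers, and 10.46, 10.35, 10.49 and 10.46 in untreated WT livers. The groups overlapped, and the difference between WT LPS and untreated WT livers was 0.01 ± 0.06 (limma adjusted p = 0.926).

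Other genes of antigen presentation, from a list of 24 of which 20 were analysed here, mostly did not pass. In WT LPS against untreated WT livers, 2 rose and 2 fell, where 9.34% of all genes were called higher and 15.6% lower. These counts are close to what those shares would give for 20 genes. Tapbpl, a relative of tapasin that edits class I peptides, rose by 1.91 ± 0.06 (limma adjusted p = 1.19e-10), the other riser being Psmb5. Ifi30, a thiol reductase that prepares proteins for class II presentation, was lower by -0.52 ± 0.09 (limma adjusted p = 0.000999) and Mr1, which presents vitamin B metabolites, by -0.93 ± 0.18 (adjusted p = 0.00237). The chaperones Calr and Canx and the cathepsins Ctss, Ctsl and Ctsb did not pass.

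Regulators of MHC genes, from a list of 22, included 11 that rose and 0 that fell (2 were lower at an unadjusted p under 0.05 in limma). The shares called over all genes were 9.34% higher and 15.6% lower. The interferon regulatory factors Irf1 (0.78 ± 0.11), Irf2 (1.15 ± 0.13), Irf8 (1.22 ± 0.07) and Irf9 (1.12 ± 0.06) rose, as did the signal transducer Stat2 (1.38 ± 0.09). Rfx5 and Nfya, subunits of the complexes that bind the X and Y boxes of MHC promoters, rose by 0.65 ± 0.13 and 0.81 ± 0.11. The kinases Jak1 and Jak2 and the receptor chain Ifngr2 rose by 0.52, 1.24 and 0.70, and Socs1, an inhibitor of Jak kinases, by 0.57. The RNA of interferon-gamma itself, Ifng, differed by 0.16 ± 0.11 (limma adjusted p = 0.316) and did not pass. That of Ifnb1 differed by 0.11 ± 0.08 (limma adjusted p = 0.356) and did not pass either. Ifng averaged 6.22 in WT LPS and 6.07 in untreated WT livers, and Ifnb1 averaged 5.12 and 5.01 in these groups. These means lay near or below the array medians of 6.15 to 6.32. At such levels a missing call does not show that either RNA was unchanged.

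The second question was whether the S534A substitution changes these genes in LPS-treated livers. No member passed: of 42, 0 were higher and 0 lower in S534A LPS than in WT LPS livers (limma, adjusted p under 0.05), where 0.166% of all genes were called higher and 0.00502% lower. At an unadjusted p under 0.05, 8 members were higher (Psmb8, Psmb10, Tap1, H2-K2, H2-Q4, H2-T10, H2-M3 and Nlrc5) and 0 lower, against 4.21% and 1.54% of all genes. The median difference was 0.07 over the 42 members and 0.01 over all genes, and 30 of the 42 were positive. With array weights, which give less weight to arrays that lie far from their group, 4 members were called higher, as were 1.73% of all genes. These were Tap1 (0.28, adjusted p = 0.0470), H2-Q4 (0.36, adjusted p = 0.0156), H2-T10 (0.30, adjusted p = 0.0329) and Nlrc5 (0.31, adjusted p = 0.0401). Without the 3 arrays with pancreas transcripts, 0 members passed in either direction, where 1 of all 19938 genes was called higher and 0 lower.

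The 3 members with the smallest p in this comparison were class I heavy chain genes. H2-T10, whose relatives are ligands of gamma-delta T cells, read 7.40, 7.55, 7.35 and 7.34 in S534A LPS livers, 7.37, 6.96, 7.10 and 7.07 in WT LPS livers, and 7.01, 6.94, 6.97 and 7.15 in untreated WT livers. S534A LPS arrays overlapped WT LPS replicate 1, and the difference of 0.29 ± 0.09 had a 95% interval of 0.10 to 0.47 before adjustment (limma adjusted p = 0.403). H2-Q4, with its arrays given above, averaged 11.71 ± 0.03 in S534A LPS livers and 11.41 ± 0.13 in WT LPS livers (SD, n = 4 each), a difference of 0.30 ± 0.10 (limma adjusted p = 0.499). H2-K2 read 8.16, 8.04, 8.48 and 8.36 in S534A LPS livers, 8.16, 7.68, 7.73 and 7.58 in WT LPS livers, and 7.53, 7.17, 6.74 and 7.33 in untreated WT livers. It differed by 0.47 ± 0.17 (limma adjusted p = 0.530), with S534A LPS replicate 2 below WT LPS replicate 1.

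For 5 members all 4 S534A LPS arrays lay above all 4 WT LPS arrays (Psmb10, Tap1, Tapbp, H2-Q4 and H2-Q5), as they did for 3.25% of all genes. For none did all S534A LPS arrays lie below, as they did for 1.18% of all genes. The same separation of WT LPS above untreated WT arrays was met by 9.78% of all genes. Tap1 differed by 0.23 ± 0.09 between S534A LPS and WT LPS livers (95% interval 0.04 to 0.43, limma adjusted p = 0.668) and Psmb8 by 0.22 ± 0.08 (0.05 to 0.39, adjusted p = 0.580). Psmb9 differed by 0.20 ± 0.10, Tap2 by 0.12 ± 0.06 and Tapbp by 0.10 ± 0.05, with limma adjusted p of 0.924 to 0.932. B2m differed by -0.01 ± 0.05, with an interval of -0.11 to 0.10.

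For Nlrc5 the 19 probe sets all gave a higher mean in S534A LPS than in WT LPS livers, by 0.23 to 0.50 with a median of 0.35, and for 9 of 19 the arrays did not overlap. The mean of its probe sets did not pass (limma adjusted p = 0.328). The 9 class II members differed by -0.06 to 0.10. Their 95% intervals were wide for H2-Aa (-0.40 to 0.52) and H2-Ab1 (-0.42 to 0.56) and narrower for others, such as H2-Oa (-0.21 to 0.10) and H2-Ea (-0.12 to 0.15). The signals of H2-Oa and H2-Ea lay below the array medians. Ciita differed by -0.08 ± 0.09 (95% interval -0.28 to 0.11). Of the 20 further antigen presentation genes, 0 passed in limma (2 higher and 0 lower at an unadjusted p under 0.05). Of the 22 regulators, 1 did: Socs1 was higher by 0.86 ± 0.07 (limma adjusted p = 0.000906), while Irf1 differed by 0.54 ± 0.11 (adjusted p = 0.0875).

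S534A LPS livers were also set against untreated WT livers, a comparison that shares its arrays with the other 2 and differs from them in both genotype and LPS. By limma 16 members were higher and 1 lower, where 11.0% of all genes were called higher and 16.0% lower. Tap1 was higher by 3.03 ± 0.09 and H2-Q4 by 2.57 ± 0.10, against 2.80 ± 0.09 and 2.27 ± 0.10 for WT LPS over untreated WT livers. Psmb8 was higher by 1.89 ± 0.08, Psmb9 by 2.16 ± 0.10 and Nlrc5 by 1.48 ± 0.10. H2-T10 was called here (0.39 ± 0.09, limma adjusted p = 0.00448) and not in WT LPS against untreated WT livers (0.11 ± 0.09, adjusted p = 0.414), and its difference between S534A LPS and WT LPS livers did not pass, as given above. The untested probe set naming H2-T9, H2-T22 and H2-T10 was higher in both LPS groups (11.19 in S534A LPS, 10.99 in WT LPS and 10.13 in untreated WT livers). H2-DMa was lower by -0.60 ± 0.19 (limma adjusted p = 0.0330). That call was lost without any one of 5 arrays: untreated WT replicates 3 and 4 and S534A LPS replicates 2, 3 and 4 (adjusted p up to 0.0948).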

How the data were processed

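RNA of each of 12 livers was hybridised to its own whole-transcript GeneChip array, and 4 arrays a group limit the precision. The authors deposited log2 values per probe set, made with RMA per the submitters' processing notes. For neither the RMA version nor the build of the array annotation is a value given in the sources used here. Values ran from 3.43 to 14.48, array medians from 6.15 to 6.32, and arrays of a group correlated at 0.983 to 0.996. Of 35556 probe sets, 21789 carried 1 symbol, 1621 several and 12146 none; 21698 were updated by Entrez identifier to the GRCm38.p6 gene table and 91 kept their symbol. For the 999 genes with several probe sets the one with the highest mean over the 12 arrays was used.

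Linear models of limma 3.58.1 with moderated statistics (R 4.3.3, two-sided) were fitted to all 12 arrays and 19938 genes with no filter, and the script was checked on simulated data. Genes passed at a Benjamini-Hochberg adjusted p under 0.05; no batch was stated. Members were taken by symbol, and the rule, lists and tests were chosen with earlier results of these data known. Array values are given for Psmb8, Tap1 and Ciita, for the 2 members of each role with the smallest p after LPS, and for the 3 with the smallest p between genotypes; H2-Q10, H2-Aa, H2-Ab1, H2-Eb1 and Cd74 and the H2-M genes were singled out after their values were seen. Classical and non-classical class I genes form 1 role, since no classical one had its own probe set. A planned comparison of protein sequences was not run, and 1 planned promoter motif is not reported here. There were 23 alternatives, 21 of them planned.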

Additional observations from a re-analysis of the deposited data

Results flagged for a closer look

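Within each group of 4 arrays, the highest and lowest value of each member was compared with the other 3 by Dixon's ratio. Of 126 sets of a member and a group, 6 had a value that stood apart, where chance gives about 1 in 20. Tap2 read 9.75 on S534A LPS replicate 3, against 9.87 to 9.89 on the other S534A LPS arrays, and this array also carried pancreas transcripts. H2-M3 read 7.41 on S534A LPS replicate 4 (others 7.62 to 7.65) and 7.68 on WT LPS replicate 1 (others 7.15 to 7.24). H2-M10.4 read 5.34 on WT untreated replicate 4 (others 5.67 to 5.69). H2-M10.5 read 4.51 on WT untreated replicate 2 (others 4.63 to 4.64), and H2-Ea read 4.97 on the same array (others 5.03 to 5.04). Tap2 and H2-M3 passed in WT LPS against WT untreated under all 23 alternatives, the array left out in turn included.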

How the results depend on the processing

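Calls of members higher in WT LPS than in untreated WT livers numbered 14 to 16 over the 23 alternatives, against 15 as reported, and 13 of these genes passed under every one. Calls of members lower there (2 as reported) numbered 1 to 2 with 1 array left out (1 when that array was WT untreated replicate 4 or either of replicates 3 and 4 of WT LPS), 0 with only the 2 groups compared, 0 without the arrays with pancreas transcripts, 0 without WT untreated replicates 2 and 4, and 1 without WT untreated replicates 1 and 3. Between S534A LPS and WT LPS livers no member was called higher under any alternative except array weights, which called 4, and 0 were lower under all 23. S534A LPS against WT untreated gave 16 to 17 higher, with the 16 reported genes passing under all 23. Members lower there (1, H2-DMa) numbered 0 to 2 with 1 array left out, 2 with array weights, and 0 with the replicate block, without the arrays with pancreas transcripts, and without either pair of untreated arrays. The alternatives that drop untreated replicates 2 and 4, or 1 and 3, were chosen after seeing the data. No called value changed sign. H2-M10.4 passed without WT LPS replicate 1 (0.58, adjusted p = 0.0265), and H2-Q2 in S534A LPS against WT untreated without WT LPS replicate 2 (adjusted p = 0.0327) or with only those groups (adjusted p = 0.0453); the cause of these changes was not tested. Replicate numbers are shared by the groups, but the labels do not say that they pair livers. Deviations of same-numbered arrays correlated at -0.27 to 0.21. This cannot settle whether livers were paired, since other differences between arrays, such as pancreas transcripts, enter these deviations. With the replicate number as a block, 15 members were higher and 2 lower in WT LPS against WT untreated, 0 and 0 in S534A LPS against WT LPS, and 16 and 0 in S534A LPS against WT untreated, where H2-DMa had an adjusted p of 0.0505. A filter on dim genes kept 27 of the 42 members. It left out Ciita, H2-Ea, H2-Eb2, H2-Oa, H2-Bl, H2-M1, H2-M2, H2-M5, H2-M9, H2-M11 and the H2-M10 genes other than H2-M10.2.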
